A study of Mus musculus with 217 samples.

Results

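Glucocorticoid responsive genes are genes whose transcription rises when corticosterone, the main stress hormone of the mouse, reaches its receptor in a cell. The set described here holds 10 such genes, *Fkbp5*, *Sgk1*, *Tsc22d3*, *Zbtb16*, *Cdkn1a*, *Ddit4*, *Angptl4*, *Hif3a*, *Plin4* and *Sult1a1*, out of 54532 genes in the RNA-Seq tables. They were taken by symbol from a fixed list. That list was chosen by earlier values of these same data, the effect of IPTG in WT mice and the effect of m*Htt* expression in LacQ140 mice, so both effects are given below as descriptions without a test. Counts of genes that meet a threshold in these effects stand beside the share of all genes that do, and nothing is read from them. The list has no numerical threshold, so no gene sits just inside or just outside it. All 10 genes had counts in both tissues at both ages, and none was lost to the minimum of 1 count per gene.

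Libraries labelled mRNA were made from total RNA of striatum and cortex of C57BL/6 mice of 6 and 12 months, and 217 of them were analysed. LacQ140 mice carry 1 *Htt* allele with an expanded CAG repeat and lac operators, named 140Q, Hdh(LacO-140Q/+):beta-actin-LacIR tg, and WT mice carry no such allele, Hdh(LacO-+/+):beta-actin-LacIR tg. Every mouse of every group carries the lac repressor transgene, which the ubiquitous beta-actin promoter drives. The repressor keeps the mutant allele down, and the lactose analog IPTG lifts it off. WT mice had no IPTG, WT + IPTG and LacQ140 mice had IPTG from E5 until sampling, LacQ140_A mice never had it, and LacQ140_2M and LacQ140_8M mice lost it at the age of 2 and of 8 months. LacQ140_8M mice were sampled at 12 months only. There were 5 females and 5 males, 10 mice, in every group but the WT, LacQ140 and LacQ140_8M groups of the 12-month striatum, which had 9 mice each (4 females, 5 males). The lowering groups therefore differed from LacQ140 mice both in m*Htt* and in having no IPTG at sampling. The 6-month libraries are labelled as one batch and the 12-month libraries as another, so age and batch cannot be told apart, and ages were not tested against each other. Mice were housed with others of the same sex, genotype and treatment, so cage and group within a sex cannot be told apart either. The hour of collection, which matters for a hormone with a daily rhythm, is not given in the sources used here.

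Corticosterone enters cells and binds the glucocorticoid receptor, which sits in the cytoplasm in a complex with heat shock protein chaperones. The bound receptor moves to the nucleus and binds DNA, often at a palindrome of 2 arms. In brain the hormone acts on neurons, glia and vessel cells, and the level of its target transcripts follows the hormone's level in blood over hours. *Fkbp5* encodes a co-chaperone that lowers the receptor's affinity for the hormone, so that its induction is a short feedback loop. *Sgk1* encodes the serum- and glucocorticoid-regulated kinase, and *Tsc22d3* encodes GILZ, a leucine zipper protein that carries anti-inflammatory effects of the hormone. *Zbtb16* encodes the zinc finger repressor PLZF, *Cdkn1a* an inhibitor of cyclin-dependent kinases, *Ddit4* an inhibitor of mTORC1, and *Hif3a* a subunit of the hypoxia-inducible factors. *Angptl4* encodes a secreted inhibitor of lipoprotein lipase, *Plin4* a coat protein of lipid droplets, and *Sult1a1* an enzyme that sulfonates phenols.

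In the GRCm38 build, with gene models of GENCODE vM21, the genes lie as follows: *Fkbp5* (ENSMUSG00000024222) at chr17:28399094-28517527, *Sgk1* (ENSMUSG00000019970) at chr10:21882184-21999903, *Tsc22d3* (ENSMUSG00000031431) at chrX:140539528-140600659, *Zbtb16* (ENSMUSG00000066687) at chr9:48654297-48836222, *Cdkn1a* (ENSMUSG00000023067) at chr17:29090976-29100727, *Ddit4* (ENSMUSG00000020108) at chr10:59949669-59951834, *Angptl4* (ENSMUSG00000002289) at chr17:33773750-33781830, *Hif3a* (ENSMUSG00000004328) at chr7:17031507-17062427, *Plin4* (ENSMUSG00000002831) at chr17:56100591-56109803, *Sult1a1* (ENSMUSG00000030711) at chr7:126672865-126676432. All are protein coding, and *Sgk1* and *Cdkn1a* lie on the plus strand and the others on the minus strand.

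The palindrome to which the receptor binds was looked for in RefSeq promoter windows of the GRCm38 build, each from 250 bases before to 50 bases after a transcription start. Of the 10 genes, 8 had windows, 16 windows in all, and none was held for *Zbtb16* or *Angptl4*. The arms AGAACA and TGTTCT, in this order with any 3 bases between them, which reads the same on both strands, occurred in 3 of 32851 windows (0.00913%), and 1 of the 3 was a window of *Sgk1*. This window is shown because it holds the element intact. It lies at chr10:21993640-21993939 on the plus strand, within the *Sgk1* gene and upstream of one of its 6 annotated starts, and the capitals mark the arms of the element, which begins 189 bases before that start.

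Sgk1 promoter window: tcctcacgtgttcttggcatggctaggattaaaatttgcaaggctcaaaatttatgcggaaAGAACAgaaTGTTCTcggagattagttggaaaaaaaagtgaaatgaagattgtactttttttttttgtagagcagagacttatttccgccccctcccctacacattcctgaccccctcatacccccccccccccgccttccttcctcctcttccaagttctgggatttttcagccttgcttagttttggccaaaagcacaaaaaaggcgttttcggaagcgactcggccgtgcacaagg

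A single arm, AGAACA or TGTTCT, the palindrome included, occurred in 19.0% of all windows and in 5 of the 16 windows of the set, those being of *Sgk1*, *Tsc22d3* and *Sult1a1*. The search covers these letters in these windows only.

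Values of a gene are in CPM, its counts set relative to the library's total after TMM scaling, which adjusts each library for its composition. Read per length of the longest transcript, in CPM per kb, the levels of the set in WT striatum at 6 months ran from a mean of 1.04 for *Hif3a*, 1.63 for *Zbtb16* and 1.72 for *Angptl4* to 41.1 for *Ddit4* and 72.1 for *Sgk1*. Within a group, single mice differed widely. In WT striatum at 6 months *Plin4* had 4.59 CPM in the lowest mouse, a median of 21.2 and 67.2 in the highest, and *Cdkn1a* had 15.1, 21.3 and 70.7 CPM. *Tsc22d3* was narrower, with 67.7, 90.2 and 117 CPM. At 6 months the group with the highest mean was WT + IPTG for 7 of the 10 genes in striatum and for 7 in cortex, and the group with the lowest mean was WT or LacQ140_A for all 10 genes in both tissues. At 12 months the lowest group was LacQ140 for 9 genes in striatum and 8 in cortex. These orders are loose, since of 180 pairs of groups next to each other in the order of a gene's means, 3 lay further apart than 1 SD.

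**Figure D1:**
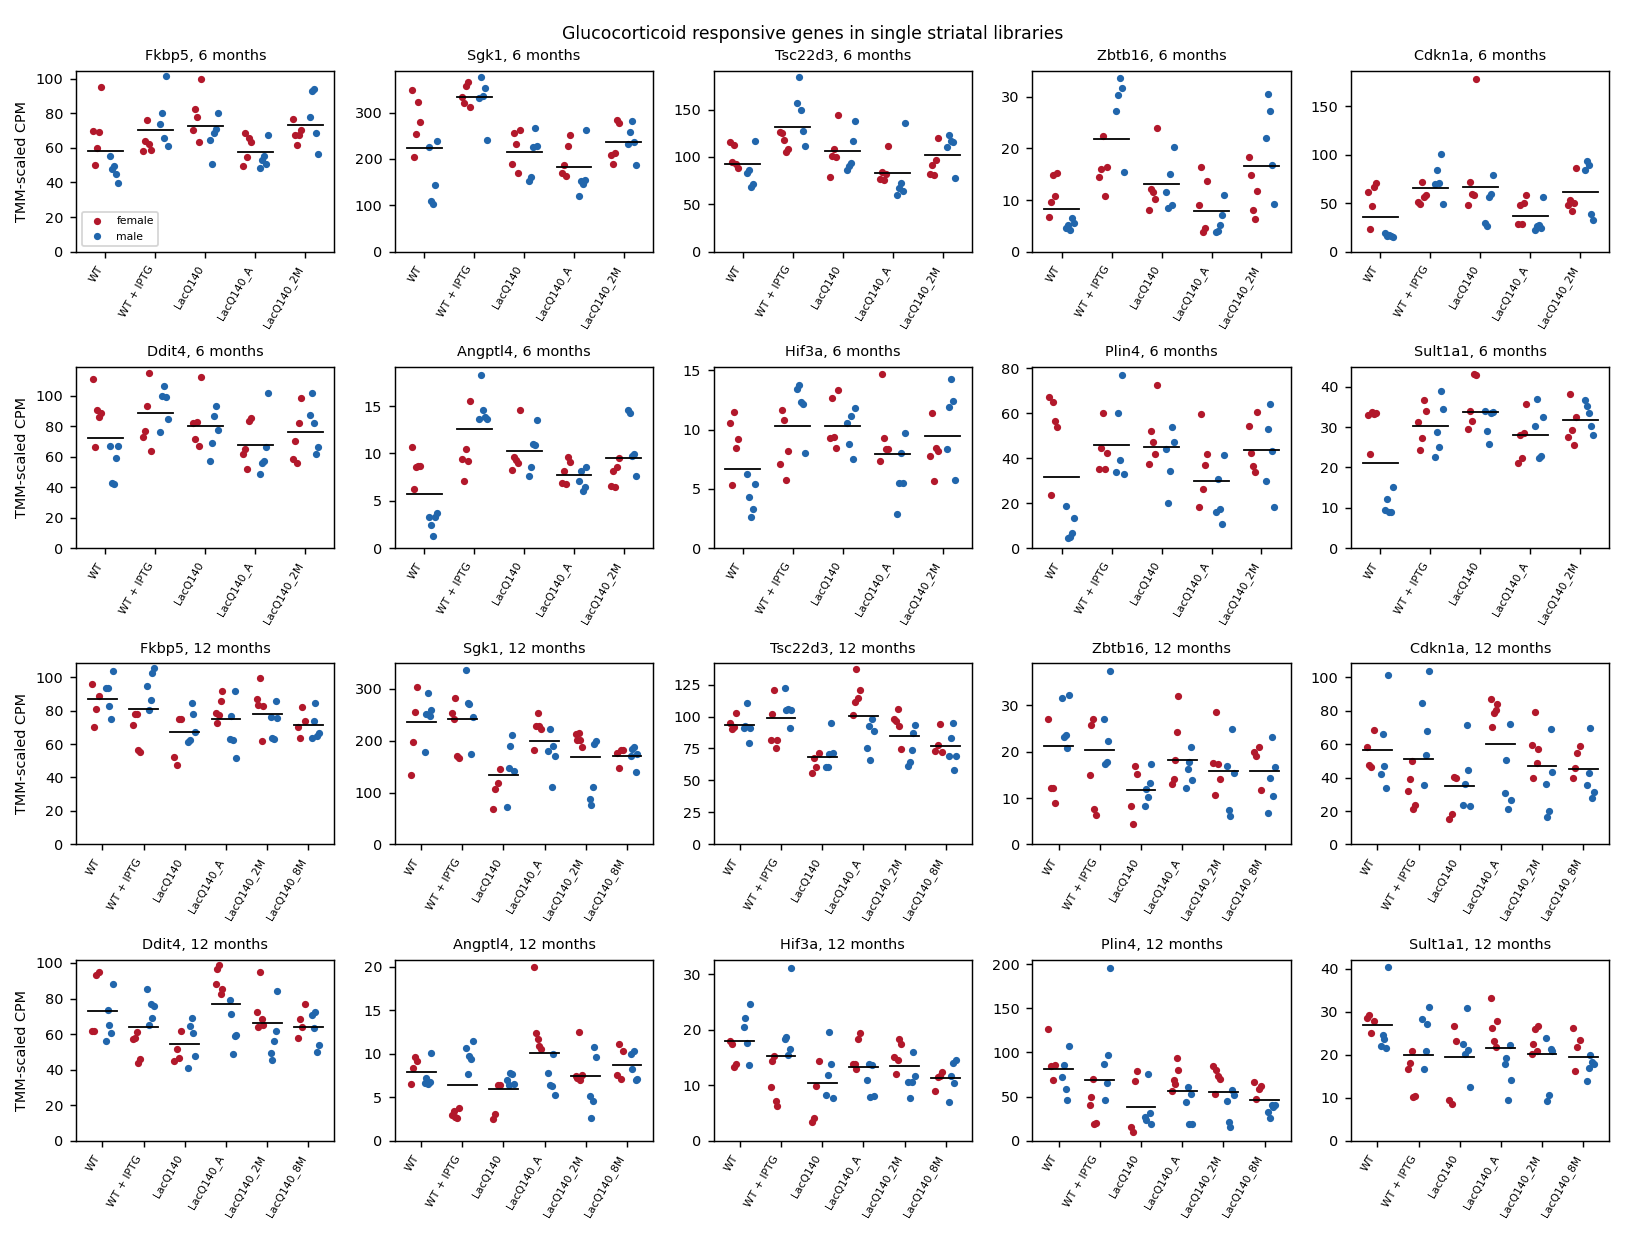
Levels of the 10 genes in every striatal library, in CPM on a linear axis from 0, by group and age. Each point is a mouse and each bar the mean of its group. At 6 months the WT + IPTG points of *Zbtb16* sit between 10.8 and 33.6 CPM and those of WT between 4.22 and 15.3, and at 12 months the LacQ140 points of *Sgk1* sit between 69.2 and 212 CPM against 166 to 336 in WT + IPTG mice.

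The first comparison asks what IPTG itself did in mice without the mutant allele. At 6 months all 10 genes were higher in WT + IPTG than in WT mice in both tissues, as the choice of the list had in view. In striatum *Zbtb16* had 4.22 CPM in the lowest WT mouse, a median of 6.62 and 15.3 in the highest, and 10.8, 19.4 and 33.6 CPM in WT + IPTG mice. All 10 mice given IPTG lay above the WT median, and the groups overlapped. The log2 difference was 1.39 ± 0.26 (SE of the edgeR fit, n = 10 and 10). *Angptl4* had 1.31, 5.00 and 10.7 CPM in WT and 7.03, 13.7 and 18.3 CPM in WT + IPTG mice, a log2 difference of 1.15 ± 0.20, and again the groups overlapped although every mouse given IPTG lay above the WT median. The kinase gene *Sgk1* had 103, 233 and 348 CPM in WT and 241, 334.4 and 377 CPM in WT + IPTG striatum, a log2 difference of 0.58 ± 0.14. *Tsc22d3* had 67.7, 90.2 and 117 CPM in WT and 105, 126 and 185 CPM in WT + IPTG striatum, a log2 difference of 0.50 ± 0.12. These 4 genes met the call used throughout, an adjusted p under 0.05 with a change of at least 20%, which 0.584% of the 35808 genes met. The other 6 genes differed by 0.27 ± 0.11 (*Fkbp5*) to 0.91 ± 0.26 (*Cdkn1a*) on the log2 scale, and the median of the 10 was 0.57 against 0.00 over all genes. *Sgk1* no longer met the call in a fit of only these 2 groups, and *Cdkn1a* met it with sex as a covariate or with the replicate block. Without WT mouse M3 or M4 or WT + IPTG mouse M1 or M2 the count was 2. In cortex the differences ran from 0.31 ± 0.13 (*Sgk1*) to 1.08 ± 0.19 (*Angptl4*), with a median of 0.46 against 0.01 over all genes, and 2 genes, *Angptl4* and *Zbtb16* (0.78 ± 0.17), met the call, beside 0.609% of all genes. Without WT mouse F5 the count in cortex was 5, and without WT mouse M5 or WT + IPTG mouse M4 it was 1.

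At 12 months this pattern was not seen. In striatum 8 of the 10 genes were lower in WT + IPTG than in WT mice and in cortex 8 of the 10, with median log2 differences of -0.17 and -0.10. *Zbtb16*, the gene with the widest difference at 6 months in striatum, had 8.97, 23.1 and 32.2 CPM in WT and 6.44, 20.1 and 37.4 CPM in WT + IPTG striatum, so that the groups lay over each other. With edgeR 0 of 10 genes were called in striatum, where 0.218% of genes were, and 0 of 10 in cortex, where 0.0% were, with 1 and 0 genes at an unadjusted p under 0.05 and 0 and 0 called by DESeq2.

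The second comparison, LacQ140 against WT + IPTG mice, asks what m*Htt* expression did while both groups had IPTG. It shares its WT + IPTG libraries with the first comparison, so a group of WT + IPTG libraries that happened to be high would push the 2 differences apart, and the values are set side by side only. In striatum at 6 months *Sgk1* had 152, 227.7 and 266.9 CPM in LacQ140 mice (lowest, median and highest), a log2 difference of -0.63 ± 0.14 from WT + IPTG beside the 0.58 of IPTG in WT. None of the 10 LacQ140 mice lay above the WT + IPTG median. *Zbtb16* had 7.99, 11.5 and 23.9 CPM, a log2 difference of -0.75 ± 0.25 beside 1.39. *Tsc22d3* differed by -0.31 ± 0.12 beside 0.50, and *Angptl4* by -0.29 ± 0.19 beside 1.15. The remaining 6 genes differed by -0.15 ± 0.13 (*Ddit4*) to 0.15 ± 0.17 (*Sult1a1*) and for all of them the groups overlapped. *Sgk1* and *Zbtb16* met the call, 2 of 10 genes beside 7.93% of all genes. *Zbtb16* no longer met it with DESeq2, with the replicate block or without any 1 of 12 libraries. These were LacQ140 mice F1 to F4, M1, M2 and M4 and WT + IPTG mice F3 and M1 to M4 (1 gene). In the cortex at 6 months the 10 differences ran from -0.52 ± 0.17 (*Zbtb16*) to 0.26 ± 0.29 (*Plin4*), and edgeR called 0 of 10 genes, with 1 gene at an unadjusted p under 0.05 and 0 called by DESeq2, against 0.881% of all genes.

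In the striatum at 12 months all 10 genes were lower in LacQ140 than in WT + IPTG mice, with a median log2 difference of -0.55 against 0.00 over all genes. *Sgk1* had 166, 249 and 336 CPM in WT + IPTG and 69.2, 142 and 212 CPM in LacQ140 striatum, a log2 difference of -0.85 ± 0.17 beside 0.04 ± 0.16 for IPTG in WT. *Tsc22d3* had 75.1, 104 and 123 CPM against 55.8, 67.9 and 95.2 CPM, a difference of -0.54 ± 0.10 beside 0.08 ± 0.10. *Zbtb16* had a median of 20.1 in WT + IPTG and 11.9 CPM in LacQ140 striatum, a difference of -0.79 ± 0.25 beside -0.07 ± 0.25. For each of these 3 genes none of the 9 LacQ140 mice lay above the WT + IPTG median, though the groups overlapped. They were the 3 genes that met the call, beside 9.44% of all genes. *Plin4* (-0.83 ± 0.32), *Hif3a* (-0.56 ± 0.21), *Cdkn1a* (-0.56 ± 0.27), *Fkbp5* (-0.27 ± 0.10) and *Ddit4* (-0.24 ± 0.12) did not meet it, and *Angptl4* (-0.10 ± 0.24) and *Sult1a1* (-0.04 ± 0.19) lay near 0. Without LacQ140 mouse M3 the count was 7, without WT + IPTG mouse F4 or F5 it was 6, and without LacQ140 mouse F5 it was 5. *Zbtb16* no longer met the call without LacQ140 mouse F1, F3 or M1 or WT + IPTG mouse M5.

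In the cortex at 12 months 9 of the 10 genes were lower in LacQ140 mice, with a median log2 difference of -0.25 and a range of -0.76 to 0.05. *Tsc22d3* had 159, 196 and 226 CPM in WT + IPTG and 98.6, 119 and 160 CPM in LacQ140 cortex. The highest LacQ140 mouse thus stood beside the lowest WT + IPTG mouse, and the difference was -0.66 ± 0.11 beside 0.16 ± 0.11 for IPTG in WT. It was the 1 gene that met the call, beside 0.0899% of all genes. *Plin4* (-0.76 ± 0.30), *Hif3a* (-0.68 ± 0.21) and *Sgk1* (-0.54 ± 0.14) were lower without meeting it. A fit of only the groups compared called 3 genes there and a fit with the length slope of each library as a covariate called 4, *Sgk1* and *Hif3a* in both.

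Cell type markers moved with the LacQ140 differences in striatum. At 12 months the summed CPM of the 5 striatal projection neuron markers was 4020 to 5832 in WT + IPTG and 2549 to 3213 in LacQ140 mice, which did not overlap. Those of oligodendrocytes (8540 to 11239 against 6613 to 10618), endothelium (223.7 to 294 against 185 to 249), astrocytes (784 to 984 against 766 to 958) and blood (187 to 1334 against 74.6 to 305) overlapped, with lower medians in LacQ140 mice. In striatum at 6 months the oligodendrocyte markers did not overlap (9626 to 11767 against 7451 to 9478), and projection neuron (3114 to 4695 against 2709 to 3652), endothelial (237 to 316 against 211 to 251) and astrocyte markers (908 to 1163 against 776 to 942) again had lower medians in LacQ140 mice. In 12-month cortex the endothelial markers ran from 195 to 274 in WT + IPTG and 159 to 253.1 in LacQ140 mice, and choroid plexus markers had medians of 18.0 and 566. Cortical excitatory neuron markers in 12-month striatum had medians of 10.6 CPM in WT + IPTG and 8.23 in LacQ140 mice. They reached 74.2 CPM in the highest WT + IPTG mouse and 303.8 in the highest LacQ140 mouse. None of the markers was at 0 in a whole group, and their part in the differences of the 10 genes was not tested.

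**Figure D2:**
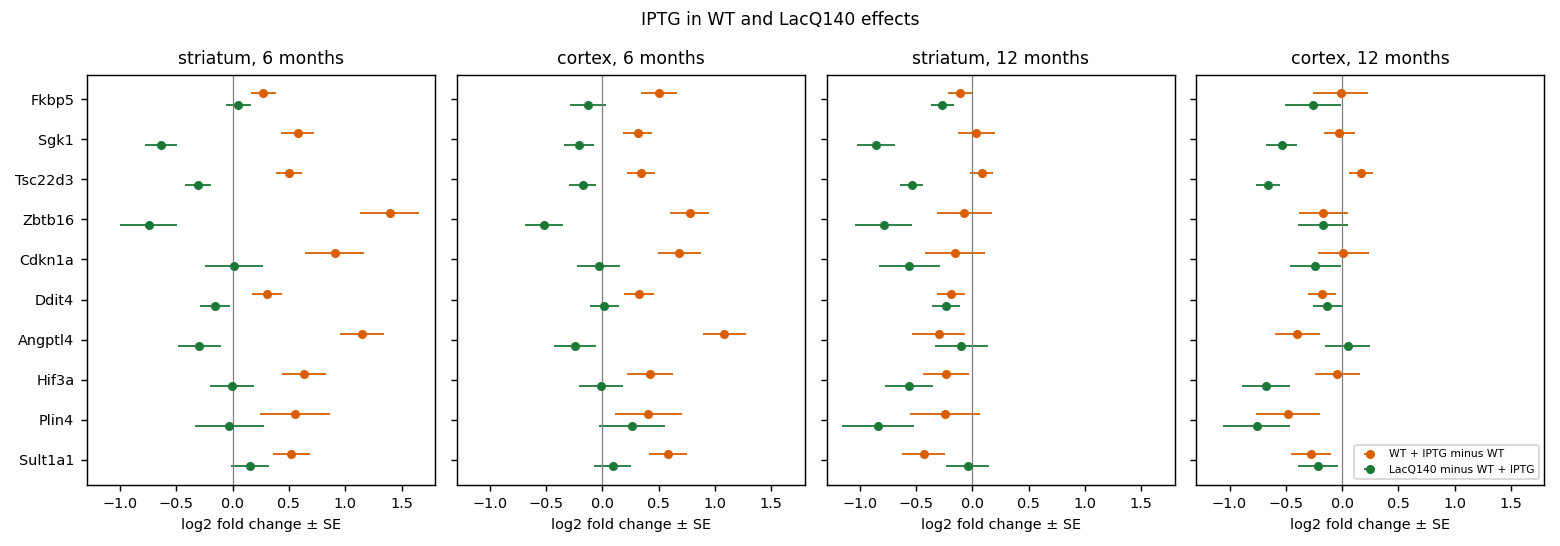
Log2 fold changes of the 10 genes for IPTG in WT and for LacQ140 against WT + IPTG, by tissue and age, with bars of 1 SE from the edgeR fit (n = 9 or 10 mice a group). At 6 months every IPTG value lies right of 0, and at 12 months in striatum every LacQ140 value lies left of it. The 2 comparisons share the WT + IPTG libraries.

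Whether the IPTG difference was alike in females and males was asked after the values of single mice were seen, and it uses the same WT and WT + IPTG values that chose the genes, so the difference between the sexes is a description without a test. At 6 months the log2 difference was larger in males than in females for all 10 genes in both tissues. In striatum *Sult1a1* had 8.90, 9.05, 9.55, 12.1 and 15.2 CPM in the 5 WT males and 22.6, 24.9, 28.8, 34.5 and 39.03 CPM in the 5 WT + IPTG males. The 5 WT females had 23.3, 32.9, 33.2, 33.5 and 33.8 CPM and the 5 WT + IPTG females 24.2, 27.2, 31.3, 33.9 and 36.7 CPM. The WT males alone stood low, and the other 3 sets of mice lay over each other. *Angptl4* had 1.31, 2.45, 3.23, 3.28 and 3.73 CPM in WT males and 13.7, 13.7, 13.8, 14.6 and 18.3 CPM in WT + IPTG males, against 6.26, 8.54, 8.63, 8.66 and 10.7 CPM in WT females and 7.03, 9.20, 9.38, 10.5 and 15.6 CPM in WT + IPTG females. *Plin4* had 4.59 to 18.8 CPM in WT males, 33.1 to 76.9 in WT + IPTG males, 23.7 to 67.2 in WT females and 35.1 to 59.96 in WT + IPTG females. For 5 of the 10 genes every WT male lay below every WT female in 6-month striatum, where 0.902% of all genes were so, and for 5 in 6-month cortex, where 0.322% were. At 12 months this held for 0 of 10 genes in either tissue, beside 1.73% of all genes in striatum and 0.333% in cortex.

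The log2 difference of IPTG in males ran from 0.69 to 2.41 over the 10 genes in 6-month striatum, with a median of 1.45, and in females from -0.29 to 0.49, with a median of 0.03. All 10 genes met the call in males, where 1.28% of genes did, and 0 of 10 in females by edgeR (0 at an unadjusted p under 0.05), where 0.0% did. In 6-month cortex 7 genes met it in males (0.864% of genes) and 0 of 10 in females (0 at an unadjusted p under 0.05, 0.0% of genes). These values within a sex come from the contrast that chose the genes and are given without a test. In striatum the difference between the sexes met the call in the edgeR fit for 5 genes, beside 0.0922% of all genes, namely *Plin4* (males minus females 2.64 ± 0.46 on the log2 scale), *Angptl4* (2.13 ± 0.27), *Cdkn1a* (2.06 ± 0.42), *Hif3a* (1.5 ± 0.33) and *Sult1a1* (1.48 ± 0.21). Those of *Zbtb16* (1.91 ± 0.44) and *Fkbp5* (0.79 ± 0.19) did not meet it, nor did those of *Ddit4*, *Sgk1* and *Tsc22d3* (0.81 ± 0.25, 0.73 ± 0.25 and 0.56 ± 0.23). In cortex 4 genes met it, beside 0.025% of all genes, *Plin4* (2.28 ± 0.44), *Angptl4* (1.76 ± 0.30), *Hif3a* (1.76 ± 0.31) and *Sult1a1* (1.36 ± 0.22). DESeq2 called 5 genes in each tissue. The call of *Hif3a* in striatum was lost under edgeR's filter of low genes and without any 1 of 13 libraries, and that of *Plin4* in cortex without any 1 of 8. Without WT mouse F5 the count in striatum was 3.

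At 12 months the widest difference between the sexes was that of *Angptl4* in both tissues. *Angptl4* had 2.66, 2.79, 2.97, 3.38 and 3.81 CPM in the striatum of the 5 WT + IPTG females, against 6.56, 8.40, 9.20 and 9.62 CPM in the 4 WT females, 6.51 to 10.1 CPM in WT males and 7.68 to 11.5 CPM in WT + IPTG males. The WT + IPTG females stood apart below all other WT mice, though not below the lowest LacQ140 (2.469 CPM) and LacQ140_2M mice (2.645 CPM). In cortex they had 3.15, 3.67, 4.18, 4.55 and 5.34 CPM, against 8.34 to 12.48 CPM in WT females, 7.29 to 11.8 in WT males and 10.1 to 10.9 in WT + IPTG males, and again lay below all other WT mice of that tissue, while the lowest LacQ140 mouse (3.48 CPM) and the lowest LacQ140_2M mouse (4.73 CPM) lay within their range. In females 4 genes met the call in striatum, *Angptl4* (-1.44 ± 0.25), *Plin4* (-1.19 ± 0.39), *Sult1a1* (-0.86 ± 0.24) and *Ddit4* (-0.55 ± 0.15), beside 8.22% of all genes, and 1, *Angptl4* (-1.32 ± 0.24), in cortex beside 0.087%. In males edgeR called 0 of 10 genes in striatum and in cortex (0 and 0 at an unadjusted p under 0.05), where 0.00283% and 0.0% of genes were called. The difference between the sexes met the call for *Angptl4* (1.84 ± 0.33) and *Ddit4* (0.66 ± 0.21) in striatum, 2 genes beside 4.38% of all genes. The call of *Ddit4* was lost without any 1 of 14 libraries. The astrocyte gene *Aqp4* (-0.58 ± 0.17), the endothelial *Ly6c1* (0.52 ± 0.16) and the pituitary hormone gene *Gh* (5.98 ± 1.80) were the single markers whose difference between the sexes met the call. *Gh* lay near 0, with a mean of 0.047 CPM (0 to 0.125) in WT striatum. The summed pituitary markers reached at most 2.05 CPM in WT + IPTG striatum. Summed astrocyte markers were 784 to 868 CPM in WT females and 898 to 969 in WT + IPTG females, which did not overlap, against 859 to 884 in WT males and 784 to 984 in WT + IPTG males. The part of these markers in the result was not tested. In cortex 0 of 10 met it by edgeR, beside 0.0058% of genes, with 2 genes at an unadjusted p under 0.05, and *Angptl4* met it by DESeq2. The LacQ140 differences were also read within each sex, as a description. In 12-month striatum all 10 genes were lower in LacQ140 males than in WT + IPTG males, by -1.48 (*Plin4*) to -0.22 (*Sult1a1*), while in females 3 of 10 were higher and the values ran from -1.02 (*Sgk1*) to 0.58 (*Angptl4*). In 12-month cortex 1 of 10 genes was higher in males and 3 of 10 in females. In 6-month cortex 1 of 10 genes was higher in males and 8 of 10 in females, and in 6-month striatum 1 and 5. The difference, males minus females, was below 0 for all 10 genes in both 6-month tissues, with medians of -0.49 in striatum and -0.44 in cortex, for 9 in 12-month striatum and for 7 in 12-month cortex. By edgeR and DESeq2 it met the call for 0 of 10 genes in either tissue at either age, with 2 genes at an unadjusted p under 0.05 in 6-month striatum, 2 in 6-month cortex, 2 in 12-month striatum and 3 in 12-month cortex, where 0.0%, 0.0%, 0.00565% and 0.0% of all genes met it.

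The cell type markers were read beside this split in 6-month striatum. The summed CPM of the endothelial markers was 241 to 275.1 in WT females, 259 to 311.96 in WT males, 263 to 316 in WT + IPTG females and 237 to 286 in WT + IPTG males, so that all 4 sets overlapped. Oligodendrocyte and striatal projection neuron markers overlapped between the 4 sets as well. So did the blood markers, whose medians were 239.5 CPM in WT males and 315.8 in WT + IPTG males, and 255.7 in WT females and 162.7 in WT + IPTG females, higher with IPTG in males and lower in females. The astrocyte markers summed to 861 to 957 CPM in WT females and 976 to 1116 in WT + IPTG males, which did not overlap, while WT males (890 to 1062) and WT + IPTG females (908 to 1163) overlapped with both. Cortical excitatory neuron markers had a median of 73.5 CPM in WT + IPTG males against 8.60 in WT males, 15.3 in WT females and 20.3 in WT + IPTG females, and choroid plexus markers reached 704 CPM in 1 WT + IPTG male. The part of these markers in the result was not tested. The water channel *Aqp4* of astrocytes was the 1 marker whose IPTG difference met the call between the sexes there (-0.63 ± 0.13), against the direction of the 10 genes. In bulk tissue more cells of a type and more RNA per cell cannot be told apart.

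**Figure D3:**
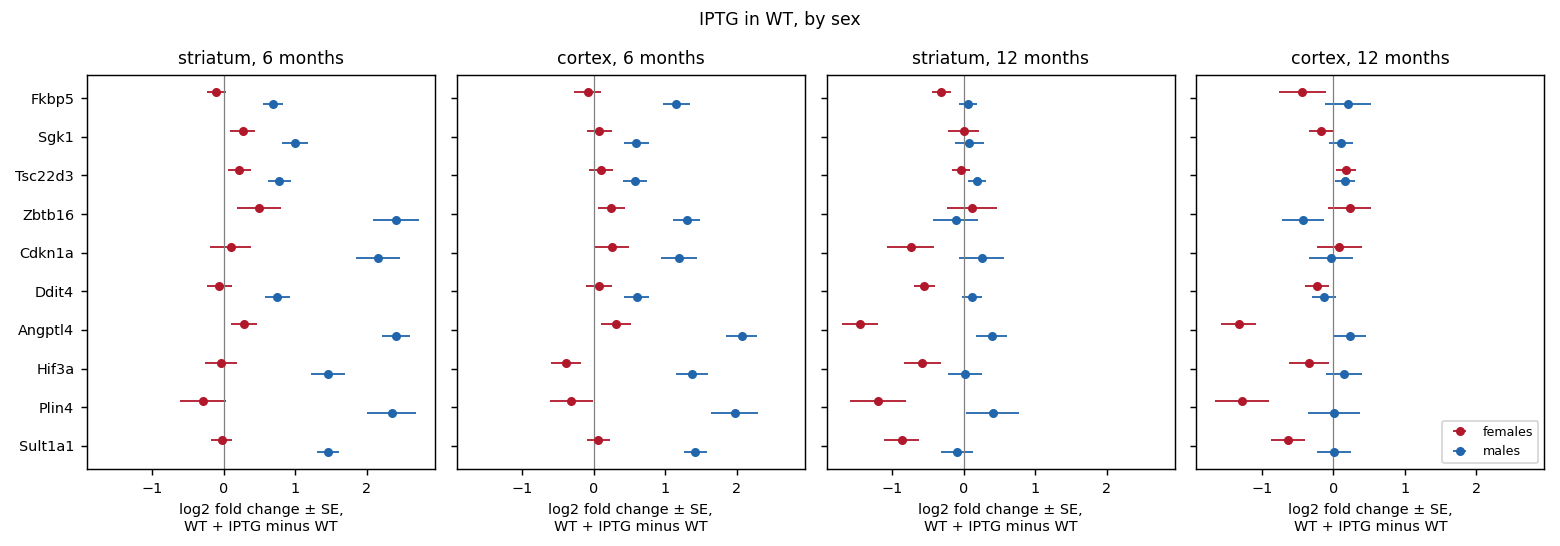
Log2 fold change of IPTG in WT mice for the 10 genes, females and males apart, by tissue and age, with bars of 1 SE from the edgeR fit of group by sex (n = 4 or 5 mice a set). At 6 months the male values lie between 0.58 and 2.41 and the female values between -0.39 and 0.49, and at 12 months the female values of *Angptl4* lie at -1.44 and -1.32.

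The lowering groups were then compared with LacQ140 mice. The LacQ140 libraries had a part in the choice of the genes, so these comparisons are descriptions without a test as well. In the striatum at 12 months all 10 genes were higher in LacQ140_A than in LacQ140 mice, with a median log2 difference of 0.54 against 0.00 over all genes and a range of 0.14 to 0.79. *Tsc22d3* had 66.4, 99.4 and 137 CPM in LacQ140_A against 55.8, 67.9 and 95.2 CPM in LacQ140 striatum. Of the 10 LacQ140_A mice 9 lay above the LacQ140 median, and the difference was 0.56 ± 0.10. *Ddit4* had 48.7, 80.8 and 98.9 against 40.98, 51.6 and 69.1 CPM, a difference of 0.50 ± 0.12, also with 9 of 10 mice above the LacQ140 median. These 2 genes met the call, beside 0.91% of all genes. *Sgk1* (0.58 ± 0.17) did not meet it there, but did with DESeq2, under edgeR's filter of low genes and with the length slope as a covariate. *Cdkn1a* (0.79 ± 0.27) and *Angptl4* (0.75 ± 0.23) had larger differences with wider spread. Without LacQ140 mouse M3 the count was 4. In the cortex at 12 months all 10 genes were again higher, by 0.09 to 0.55 on the log2 scale, and *Tsc22d3* met the call (139, 172 and 236.5 against 98.6, 119 and 160 CPM, 0.54 ± 0.11, 10 of 10 mice above the LacQ140 median), 1 gene where 0.0435% of all genes were called. That call was lost without LacQ140 mouse F1, F2 or F4 or LacQ140_A mouse F4 or F5 (0 genes). Striatal projection neuron markers moved in the same direction in 12-month striatum, with a median of 3501 CPM (3128 to 4096) in LacQ140_A and 2943 (2549 to 3213) in LacQ140 mice, as did the medians of oligodendrocyte (9515 against 8465) and endothelial markers (212 against 204). The median of astrocyte markers was lower in LacQ140_A mice (832.97 against 844.28). In 12-month cortex choroid plexus markers had medians of 14.1 CPM in LacQ140_A and 566 in LacQ140 mice, and cortical excitatory neuron markers of 673 and 804. Their part in the result was not tested.

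At 6 months the differences had the other sign, while projection neuron markers were again higher in LacQ140_A striatum (3496 to 5206 against 2709 to 3652 CPM). Pituitary markers reached 115.4 CPM in LacQ140_A striatum and 111.04 in LacQ140_A cortex, against at most 3.77 and 4.65 in LacQ140 mice. Their medians in LacQ140_A mice were 2.64 and 3.48 CPM, and the part of these markers was not tested. All 10 genes were lower in LacQ140_A than in LacQ140 mice in striatum, by -0.85 to -0.23, and in cortex, by -0.55 to -0.23 on the log2 scale. *Cdkn1a* had 22.5, 28.9 and 58.1 CPM in LacQ140_A and 26.9, 58.9 and 179 CPM in LacQ140 striatum (-0.85 ± 0.26), and *Fkbp5* had 48.4, 54.9 and 68.5 against 50.4, 70.6 and 99.7 CPM (-0.34 ± 0.11). For both, 0 of the 10 LacQ140_A mice lay above the LacQ140 median. EdgeR called 0 of 10 genes in each tissue, with 5 at an unadjusted p under 0.05 in striatum and 5 in cortex and 0 by DESeq2 in both, where 1.88% and 0.00834% of all genes were called. A fit of only the 2 groups called 3 in striatum, *Fkbp5*, *Cdkn1a* and *Angptl4*. Without LacQ140 mouse M1 or LacQ140_A mouse F2 the count in striatum was 1, and without LacQ140 mouse M2 or LacQ140_A mouse F5 or M5 it was 2.

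For LacQ140_2M mice edgeR and DESeq2 called 0 of 10 genes in any of the 4 sets. At 6 months the differences from LacQ140 ran from -0.12 to 0.34 in striatum and from -0.36 to 0.12 in cortex, with 0 and 0 genes at an unadjusted p under 0.05, where 1.26% and 0.0% of all genes were called. At 12 months all 10 genes were higher in LacQ140_2M mice in both tissues, by 0.06 to 0.51 in striatum and 0.01 to 0.53 in cortex, with 4 and 3 genes at an unadjusted p under 0.05, and 0.608% and 0.0841% of all genes were called. *Tsc22d3* had 61.3, 89.7 and 106 CPM in LacQ140_2M striatum (0.31 ± 0.10 above LacQ140). For LacQ140_8M mice 9 of 10 genes were higher in each tissue at 12 months, with medians of 0.24 and 0.27, and 0 of 10 were called by edgeR or DESeq2, with 2 and 4 at an unadjusted p under 0.05, where 0.00565% and 0.0% of all genes were called. *Angptl4* had 6.94, 8.29 and 11.2 CPM in LacQ140_8M and 2.47, 6.46 and 7.75 CPM in LacQ140 striatum (0.55 ± 0.24), and all 9 LacQ140_8M mice lay above the LacQ140 median. *Htt* itself, both alleles together, did not stand lower in LacQ140_8M than in LacQ140 striatum (110.9 ± 8.15 against 111 ± 10.9 CPM, SD, n = 9 and 9). The comparisons of lowering groups share the LacQ140 libraries.

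LacQ140_A and WT mice both had no IPTG and differ in genotype, and the WT libraries are those of the first comparison. EdgeR and DESeq2 called 0 of 10 genes in each of the 4 sets, with 2 genes at an unadjusted p under 0.05 in each. Of all genes 0.91% were called in 6-month striatum, 0.425% in 6-month cortex, 3.15% in 12-month striatum and 0.0174% in 12-month cortex. At 6 months *Angptl4* and *Sult1a1* were the furthest apart, at 0.44 ± 0.20 and 0.41 ± 0.17 in striatum and 0.48 ± 0.19 and 0.42 ± 0.17 in cortex, with all 10 LacQ140_A mice above the WT median for both genes in both tissues. At 12 months *Plin4* and *Hif3a* were lower, at -0.55 ± 0.31 and -0.44 ± 0.21 in striatum and -0.70 ± 0.29 and -0.58 ± 0.21 in cortex. The 10 differences ran from -0.28 to 0.44 in 6-month striatum, -0.17 to 0.48 in 6-month cortex, -0.55 to 0.36 in 12-month striatum and -0.70 to 0.20 in 12-month cortex.

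Males and females were compared over all groups of a tissue and age. EdgeR and DESeq2 called 0 of 10 genes in each set, with 4 genes at an unadjusted p under 0.05 in 6-month striatum, 4 in 6-month cortex, 0 in 12-month striatum and 1 in 12-month cortex. Of all genes 0.279%, 0.192%, 0.218% and 0.154% were called in the same order. At 6 months 8 of 10 genes were lower in males in striatum and 9 of 10 in cortex, with *Plin4* the furthest down in both (-0.63 and -0.58 on the log2 scale). The highest value was 0.03 in striatum and 0.23 in cortex, and at 12 months the 10 differences ran from -0.31 to 0.15 in striatum and -0.15 to 0.29 in cortex.

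Striatum and cortex were compared within the same WT mice. At 6 months *Zbtb16* had 4.10 to 14.9 CPM in striatum and 15.3 to 33.96 CPM in cortex and was lower in striatum in 10 of 10 mice (-1.58 ± 0.11 on the log2 scale, adjusted p = 9.91e-10). *Sgk1* was higher in striatum in 10 of 10 mice, at 216 ± 81.6 against 115.8 ± 37.4 CPM (SD, n = 10, log2 difference 0.87 ± 0.07, adjusted p = 2.16e-09). *Plin4* (0.63 ± 0.09), *Fkbp5* (0.46 ± 0.08) and *Ddit4* (0.34 ± 0.09) were also higher in striatum and *Angptl4* (-0.47 ± 0.10) and *Tsc22d3* (-0.32 ± 0.06) lower, 7 genes called where 31.4% of all genes were. In WT + IPTG mice *Tsc22d3* differed by -0.08 ± 0.05 (adjusted p = 0.249) and was not called. At 12 months 9 were called where 51.1% of all genes were. *Hif3a* (2.46 ± 0.11), *Plin4* (2.24 ± 0.10) and *Fkbp5* (2.16 ± 0.14) were far higher in striatum, *Cdkn1a* (0.84 ± 0.10), *Zbtb16* (0.82 ± 0.14) and *Sgk1* (0.60 ± 0.06) higher, and *Tsc22d3* (-1.05 ± 0.07), *Sult1a1* (-0.67 ± 0.08) and *Angptl4* (-0.50 ± 0.09) lower. *Zbtb16* thus stood lower in striatum at 6 months and higher at 12 months. The libraries of the 12-month cortex stood apart: the slope of log2 CPM on log2 transcript length, over all genes, was -0.482 to -0.028 there, against 0.128 to 0.439 in 12-month striatum and -0.001 to 0.464 in 6-month cortex. The longest transcripts of the set are those of *Hif3a* (6402 nt), *Plin4* (5756 nt), *Zbtb16* (5114 nt) and *Fkbp5* (3858 nt), and at 12 months tissue and this slope cannot be told apart.

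Levels in the 2 tissues of one mouse went together. After removal of the mean of each group and sex, the log2 CPM in striatum and in cortex of the same mouse correlated for every gene at both ages. At 6 months, over 50 mice, Pearson's r was lowest for *Ddit4* (0.621, Spearman's rho 0.62) and highest for *Sgk1* (0.926, rho 0.897) and *Plin4* (0.919, rho 0.901). At 12 months, over 57 mice, it was lowest for *Hif3a* (0.460, rho 0.469) and *Zbtb16* (0.487, rho 0.518) and highest for *Cdkn1a* (0.875, rho 0.884) and *Sult1a1* (0.874, rho 0.852). By permutation of mice within group and sex all 20 relations passed, with an adjusted p of 1e-05, the smallest that 100000 resamples can give, for *Sgk1* at both ages, and of 0.00177 for *Hif3a* at 12 months, the largest. Over all genes with a mean log2 CPM of at least 1 in both tissues, the median r was 0.18 at 6 months (13067 genes) and 0.074 at 12 months (12459 genes). An r at or above the lowest of the set was found for 1.98% of these genes at 6 months and 2.79% at 12 months, a description without a test. Without the 2 mice furthest from the median in striatum r was 0.912 for *Sgk1* at 6 months and 0.47 for *Hif3a* at 12 months. Within single groups r was positive in 5 of 5 groups for all genes at 6 months and in 6 of 6 at 12 months, but for *Hif3a* with 5 of 6. A mouse that was high among its like in one region thus tended to be high in the other.

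**Figure D4:**
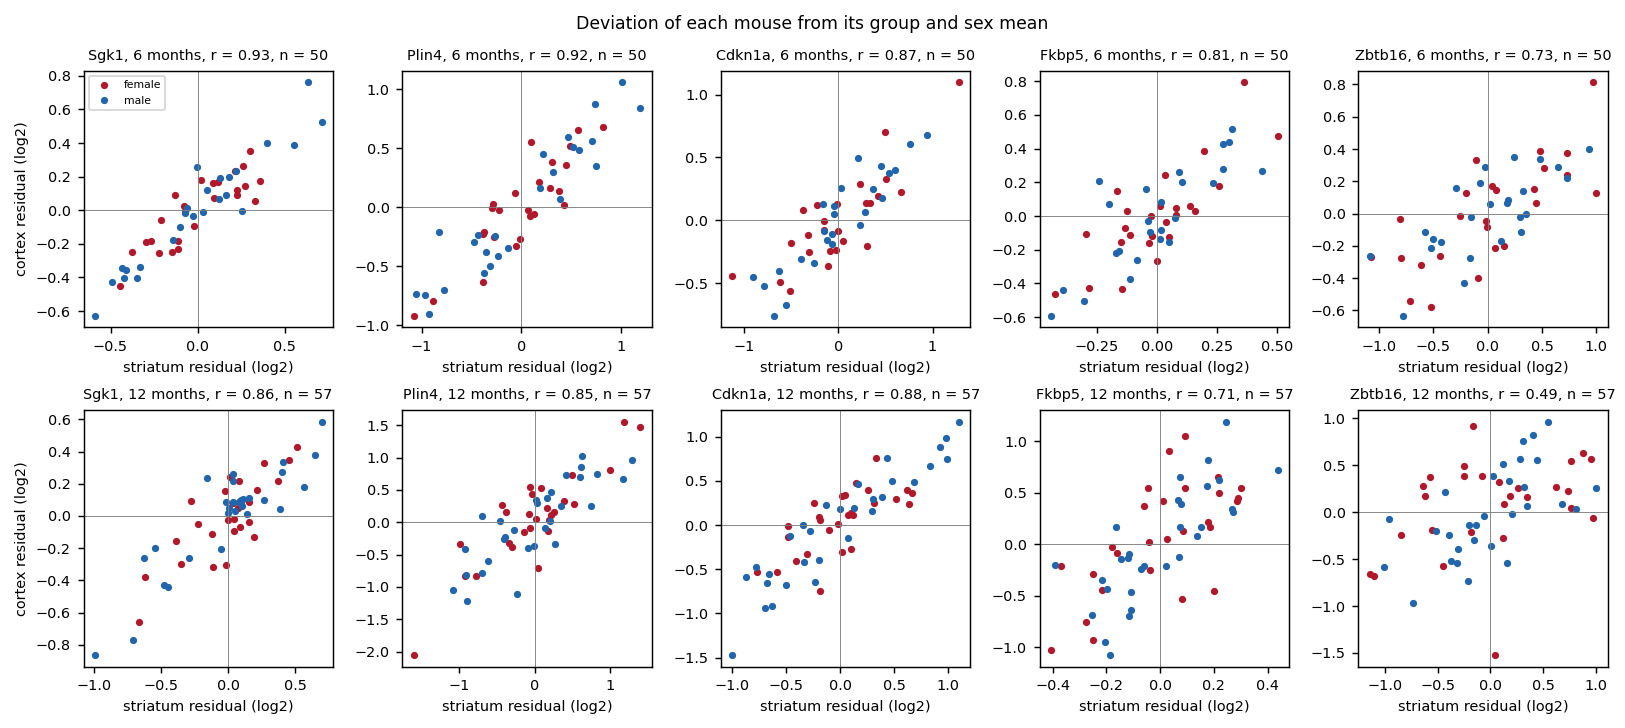
Residual log2 CPM of 5 of the 10 genes (*Sgk1*, *Plin4*, *Cdkn1a*, *Fkbp5* and *Zbtb16*) in cortex against striatum of the same mouse, after group and sex means were taken off, at 6 months (50 mice) and 12 months (57 mice). Each point is a mouse. The points of *Sgk1* at 6 months follow a line (r = 0.926), and those of *Zbtb16* at 12 months are the most scattered of those shown (r = 0.487).

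The 10 genes also went together within a library. Over the same residuals, with no p because the pairs share libraries, r was positive for 45 of the 45 pairs of genes in 6-month striatum (50 libraries, median 0.531), for 45 in 6-month cortex (50 libraries, median 0.420), for 45 in 12-month striatum (57 libraries, median 0.534) and for 37 in 12-month cortex (60 libraries, median 0.379, lowest -0.288). Of the 8 pairs below 0 in the 12-month cortex, 7 held *Tsc22d3*. These are the libraries whose length slope stood apart, and the part of that slope was not tested. *Fkbp5*, the feedback co-chaperone, was taken as the reference, and 12398 genes were ranked by the lowest of their 4 values of r with it. *Cdkn1a* stood first (lowest r 0.821) and *Plin4* in place 7 (0.681), followed among the set by *Zbtb16* in place 25 and *Hif3a* in place 36, the latter ranked although its mean lay below the log2 CPM of 1 asked of other genes, while *Sgk1* stood in place 189, *Angptl4* in 372, *Sult1a1* in 622, *Ddit4* in 1040 and *Tsc22d3* in 7258. The lowest r was over 0.5 for 52 genes, and its median over all genes was -0.208. The 10 genes outside the set that followed *Fkbp5* most closely were *Ankrd13a* (0.757), *Mfsd2a* (0.723), a lipid transporter of brain endothelium, *Ptpn11* (0.720), *Wipf3* (0.71), *Klf13* (0.683), *Pnpla2* (0.679), a triglyceride lipase, *Slc2a1* (0.679), the glucose transporter of the blood-brain barrier, *Aff1* (0.676), *Xdh* (0.658) and *Klf9* (0.622), a known target of the hormone.

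**Figure D5:**
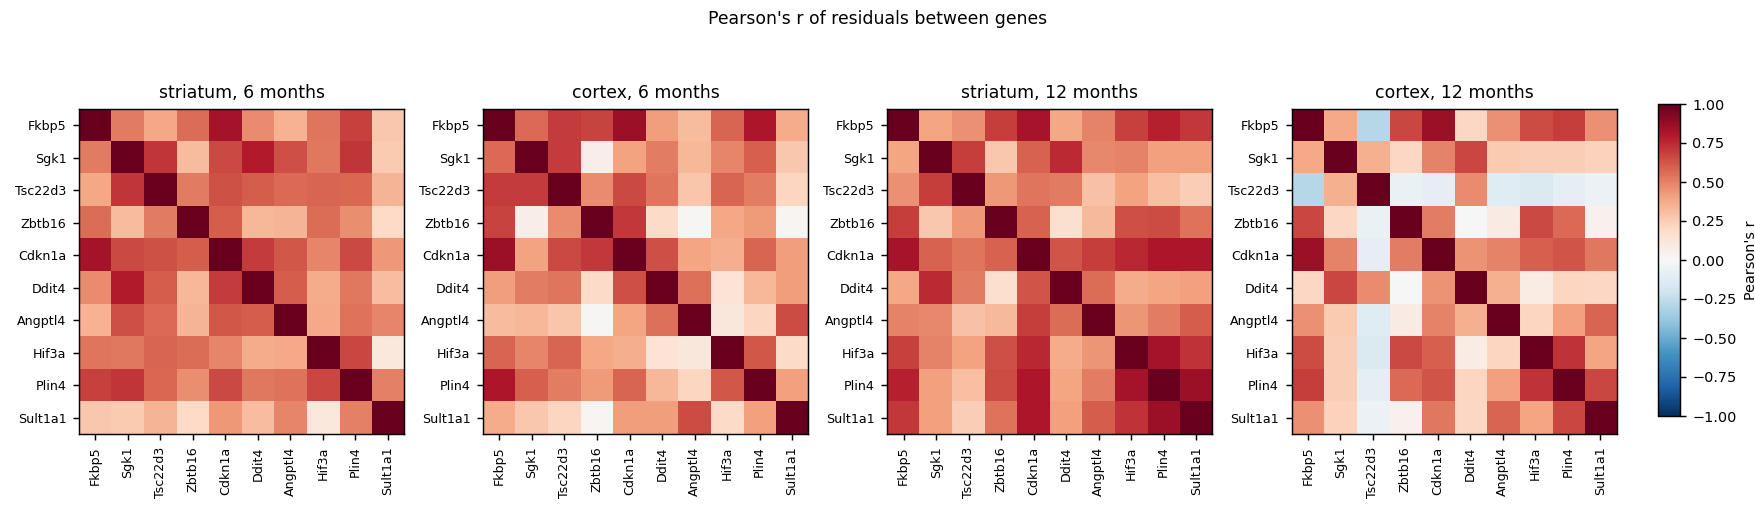
Pearson's r of residual log2 CPM for each pair of the 10 genes within a library, after group and sex means, by tissue and age (50 to 60 libraries a panel). All 45 pairs are positive in both 6-month sets and in 12-month striatum, and 37 are in 12-month cortex, where *Tsc22d3* lies at -0.288 with *Fkbp5*.

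The genes that bring the hormone's signal to these targets were read as a list of 14, of receptors, chaperones, coactivators, the enzyme that makes corticosterone in tissue, an efflux pump of the blood-brain barrier, and the releasing hormone *Crh* with its receptor and binding protein. The list was drawn up with earlier results of these data known. Its calls and adjusted p-values are therefore a description and not independent evidence. For IPTG in WT 0 of 14 were called by edgeR or DESeq2 in any set, with 0, 4, 5 and 2 at an unadjusted p under 0.05 in 6-month striatum, 6-month cortex, 12-month striatum and 12-month cortex. The glucocorticoid receptor gene *Nr3c1*, named here after its values were seen, differed by -0.04 ± 0.06 in 6-month striatum, -0.29 ± 0.09 in 6-month cortex, 0.18 ± 0.08 in 12-month striatum and 0.21 ± 0.10 in 12-month cortex. For LacQ140 against WT + IPTG mice 3 of 14 were called in 6-month striatum, beside 7.93% of all genes, the mineralocorticoid receptor *Nr3c2* upward (0.45 ± 0.06, adjusted p = 1.73e-07) and the co-chaperone *Ptges3* (-0.30 ± 0.07, adjusted p = 0.00359) and the corticosterone-making enzyme *Hsd11b1* (-0.30 ± 0.09, adjusted p = 0.0128) downward, and *Nr3c2* was called again in 12-month striatum (0.30 ± 0.05, adjusted p = 1.64e-05), 1 of 14 beside 9.44%. In cortex edgeR and DESeq2 called 0 of 14 at either age, with 2 and 3 at an unadjusted p under 0.05. *Nr3c2* was also higher in LacQ140_A than in WT mice in 6-month striatum (0.28 ± 0.06, adjusted p = 0.00869), 1 of 14 beside 0.91% of all genes. *Crh* was called lower in 12-month striatum by edgeR (-1.09 ± 0.33, adjusted p = 0.0346), 1 of 14 beside 3.15%, and DESeq2 did not call it. In 6-month cortex edgeR called 0 of 14, with 3 at an unadjusted p under 0.05, and DESeq2 called 1, and in 12-month cortex both called 0, with 2 at an unadjusted p under 0.05. The lowering groups against LacQ140 gave 0 of 14 by edgeR and DESeq2 in every set, with 0 to 4 at an unadjusted p under 0.05. Between tissues 10 of 14 were called at 6 months, beside 31.4% of all genes, and 12 of 14 at 12 months, beside 51.1%, with *Crhbp*, *Hsd11b1* and *Crhr1* lower in striatum at 6 months (-3.03 ± 0.09, -1.27 ± 0.07 and -1.15 ± 0.08).

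A second list held 16 further targets of the hormone. With IPTG in WT mice 5 of 16 were called in 6-month striatum, beside 0.584% of all genes, all upward, led by *Rasd1*, the dexamethasone-induced Ras protein (1.0 ± 0.16), *Gjb6* (0.40 ± 0.09) and *Arrdc2* (0.85 ± 0.20), with a list median of 0.17. In 6-month cortex 3 were called upward and 1 downward, beside 0.609%, led by *Dusp1* (-0.72 ± 0.13), a phosphatase of MAP kinases that went down, *Arrdc2* (0.74 ± 0.17) and *Klf15* (0.48 ± 0.11). At 12 months edgeR and DESeq2 called 0 of 16 in either tissue, with 3 and 0 at an unadjusted p under 0.05. In LacQ140 against WT + IPTG striatum at 6 months 1 was called upward, *Cebpb* (0.57 ± 0.16, adjusted p = 0.00983), and 1 downward, *Rasd1* (-0.66 ± 0.16, adjusted p = 0.00212), beside 7.93% of all genes. In cortex *Dusp1* was called upward at 6 months (0.63 ± 0.13, adjusted p = 0.0049, beside 0.881%) and *Gjb6* downward at 12 months (-0.36 ± 0.08, adjusted p = 0.0321, beside 0.0899%). In LacQ140 striatum at 12 months 7 of 16 fell, beside 9.44%, led by *Arl4d* (-0.75 ± 0.10, adjusted p = 5.06e-08), *Per1*, a clock gene (-0.74 ± 0.12, adjusted p = 4.22e-06), and *Dusp1* (-0.85 ± 0.16, adjusted p = 3.33e-05). In LacQ140_A against LacQ140 striatum at 12 months 5 of 16 rose, beside 0.91%, led by *Rasd1* (1.12 ± 0.21, adjusted p = 0.000661), *Nfkbia* (0.54 ± 0.12, adjusted p = 0.00661) and *Arl4d* (0.44 ± 0.10, adjusted p = 0.00971). The same comparison at 6 months gave 0 of 16 by edgeR and DESeq2 in either tissue, with 8 and 9 at an unadjusted p under 0.05. In 12-month cortex it gave 0 of 16 by edgeR, with 8 at an unadjusted p under 0.05, and 1 by DESeq2. LacQ140_2M and LacQ140_8M against LacQ140 mice gave 0 of 16 by edgeR and DESeq2 in both 12-month tissues, with 6 at an unadjusted p under 0.05 in each, and LacQ140_2M mice 0 of 16 by edgeR in both 6-month tissues, with 2 and 1, and 1 by DESeq2 in striatum. This list was drawn up with earlier results of these data known and is not independent evidence of a direction.

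Facts of the whole series bear on these values as follows. The summed counts of a library were 33292014 to 68038785, with a median of 43867505, and counting error was not set against the spread between mice. The sex labels matched the data in all 217 libraries, and no 2 libraries of a group agreed within sampling noise. Total *Htt* had a mean of 87.7 ± 8.32 CPM in LacQ140_A, 88.9 ± 8.89 in LacQ140_2M and 102 ± 10.9 in LacQ140 striatum at 6 months (SD, n = 10 each), and of 93.4 ± 15.9 in LacQ140_A and 100.3 ± 11.1 in LacQ140_2M striatum at 12 months (n = 10 each). In cortex the means of the lowering groups were 76.9 to 81.5 against 93.7 CPM in LacQ140 mice at 6 months and 16.99 to 17.99 against 23.9 CPM at 12 months. Striatal projection neuron markers summed to 2461 to 5832 CPM in striatum and 103 to 307 CPM in cortex, while cortical excitatory neuron markers summed to 3.50 to 303.8 CPM in striatum and 356 to 1494 CPM in cortex, so the tissue labels held. Choroid plexus markers ran from 2.38 to 2034 CPM over the libraries, and their part in the results was not tested. Reads of *Plin4* and *Hdgfl2* and of *Sult1a1* and *Sgf29* can be mixed, because these genes overlap on opposite strands and whether the counting used strand is not given in the sources used here.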

How the data were processed

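RNA-Seq of striatum and cortex was analysed in 217 libraries. The deposited tables hold expected counts per gene (54532 genes, 24.87% of nonzero values not whole within 0.01), not normalized. The build is GRCm38 per the labels, and the aligner, the counting program and its use of strand are not given in the sources used here. Counts were rounded, genes without 1 count were dropped, and TMM scaling and edgeR 4.0.16 quasi-likelihood tests (R 4.3.3) were run over all groups of one tissue and age, with Benjamini-Hochberg adjustment over all genes. A call needs an adjusted p under 0.05 and a change of at least 20%. Standard errors derive from the F statistic. Levels are CPM. Striatum and cortex were compared in WT mice with the mouse as a block, from the mouse numbers in the labels. Correlations used log2 CPM with a prior count of 2, after group and sex means, with 100000 permutations within group and sex and adjustment over 20 relations. Python 3.11.15 and DESeq2 1.42.0, an alternative, were also used. The scripts were tested on simulated data.

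The members and lists were chosen with earlier results of these data known, and the comparisons by sex after values of single mice were seen. All 10 members enter every comparison, and those not named singly there are covered by its counts or ranges. Of the other lists at most 3 called genes with the smallest p per comparison are named, and of genes like *Fkbp5* the 10 with the highest minimum r over the 4 sets among genes with a mean log2 CPM of at least 1. Alternatives were other size factors, a filter on low genes, covariates, a replicate block, fits of only the groups compared, DESeq2 and leaving out each library. Library totals were 33292014 to 68038785 counts. P-values measure the spread between mice, with no term for the cage, and no sample was left out.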

Additional observations from a re-analysis of the deposited data

Results flagged for a closer look

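Of 220 groups of 9 or 10 mice, 17 held a mouse far from the others by Dixon's test, 16 high and 1 low, in 15 libraries, and chance gives about 1 in 20 groups, or 11. At 6 months, LacQ140 female F5 was high for *Cdkn1a* in striatum (179 CPM, next 78.9) and in cortex for *Cdkn1a* (129, next 65.1) and *Fkbp5* (97.4, next 64.4). In 6-month striatum WT + IPTG male M4 was high for *Fkbp5* (102, next 80.1) and WT + IPTG male M5 low for *Sgk1* (241). In 6-month cortex WT + IPTG male M2 (27.9, next 18.5) and LacQ140_2M male M1 (21.7, next 15.8) were high for *Angptl4*.

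In 12-month striatum WT + IPTG male M5 was high for *Plin4* (196, next 97.6) and *Hif3a* (31.2, next 18.7), LacQ140 male M4 for *Tsc22d3* (95.2, next 71.5), and LacQ140_A female F1 for *Angptl4* (19.9, next 12.4). WT male M5 was high for *Sult1a1* in 12-month striatum (40.4, next 29.2) and for *Cdkn1a* in cortex (56.4, next 34.3). In 12-month cortex LacQ140_8M female F5 was high for *Fkbp5* (30.5, next 18.3), LacQ140 male M5 for *Zbtb16* (14.7, next 9.87), LacQ140 male M3 for *Cdkn1a* (45.5, next 28.1) and LacQ140_A male M4 for *Hif3a* (3.44, next 2.13).

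The IPTG difference in WT mice met the call between the sexes in the edgeR fit for some of the 10 genes, but the question was asked after single mice were seen, on the values that chose the genes, so these differences are a description and a hypothesis to be tested in other mice. In 6-month striatum males minus females was 2.06 for *Cdkn1a*, 2.13 for *Angptl4*, 1.5 for *Hif3a*, 2.64 for *Plin4* and 1.48 for *Sult1a1* on the log2 scale. In 6-month cortex it was 1.76 for *Angptl4*, 1.76 for *Hif3a*, 2.28 for *Plin4* and 1.36 for *Sult1a1*, and in 12-month striatum 0.66 for *Ddit4* and 1.84 for *Angptl4*.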

How the results depend on the processing

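All but 8 of the counts of called genes under alternatives stayed within 1.5 times the reported count, and for 33 of 38 results no alternative moved the count by more than that, leaving out a library aside. No direction reversed. The LacQ140 count in 6-month striatum was 1 with the replicate block and 1 with DESeq2 (reported 2). With only the groups compared, the LacQ140_A against LacQ140 count was 3 in 6-month striatum (reported 0) and 4 in 12-month cortex (reported 1), and the LacQ140 count in 12-month cortex was 3 (reported 1). With the length slope as a covariate the last 2 were 2 and 4. The sex difference of IPTG in 12-month cortex was called for 1 gene with DESeq2 (reported 0). The cause of these shifts was not tested.

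Replicate numbers did not pair mice across groups: the mean correlation of deviations was 0.021 to 0.065 for the same number and 0.020 to 0.089 for other numbers of the same sex. With the replicate block the IPTG counts were 5 in 6-month striatum and 3 in 6-month cortex. Between tissues, where mice are paired, the count without the block was 5 at 6 months (reported 7).

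Leaving out 1 library gave 2 to 5 (IPTG, 6-month striatum), 1 to 5 (IPTG, 6-month cortex), 1 to 3 (LacQ140, 6-month striatum), 2 to 7 (LacQ140, 12-month striatum), 0 to 2, 2 to 4 and 0 to 1 (LacQ140_A against LacQ140 in 6-month striatum, 12-month striatum and 12-month cortex), and 3 to 7, 3 to 5 and 1 to 3 (sex difference of IPTG in 6-month striatum, 6-month cortex and 12-month striatum). Of 591 such fits 49 moved a count by over 1.5 times. Whether depth limited these genes was not tested, and 4 or 5 mice of a sex limit the comparisons by sex.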

Other observations

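In 12-month striatum the sex difference of IPTG in WT mice, a comparison chosen after values of single mice were seen, was called for 6 of the 14 genes of the receptor pathway, all lower in males minus females, beside 4.38% of all genes. The lists were also drawn up with earlier results known, so these values are a description without a test. The 3 with the smallest p were *Nr3c1*, the receptor itself (-0.64 ± 0.12), the chaperone *Hsp90aa1* (-0.49 ± 0.09) and the coactivator *Ncoa1* (-0.55 ± 0.11). Of the 16 further targets 3 were higher and 2 lower, led by the metallothionein *Mt2* (0.58 ± 0.14), *Arrdc2* (1.04 ± 0.27) and *Bcl6* (-0.68 ± 0.18). In 6-month striatum 0 of 14 and 0 of 16 were called by edgeR, with 2 and 7 at an unadjusted p under 0.05.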
